A study of Rattus norvegicus with 28 samples.

Results

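The genes of the major histocompatibility complex (MHC) and of antigen presentation were described in NRK-49F, an established line of normal rat kidney fibroblasts. They were chosen by name as every gene in the deposited expression table whose symbol starts with RT1-, the rat MHC, plus B2m, Tap1, Tap2, Tapbp, Cd74, Psmb8, Psmb9, Psmb10, Ciita and Nlrc5. That gave 41 of the 30178 genes listed, 29 on the class I side of the pathway and 12 on the class II side. Polyadenylated RNA was sequenced in 8 of the series' 28 samples, and the other 20, which are chromatin samples, were not analysed here.

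The 8 libraries form 4 groups of 2. Cells labelled TGF-β + siHoxc8 received transforming growth factor β1 (TGF-β1) and an siRNA against Hoxc8, a homeobox transcription factor. Cells labelled TGF-β + MetR received TGF-β1 in methionine-restricted medium, which held 30 uM methionine where the matching full medium held 200 uM. Cells labelled TGF-β received TGF-β1 alone, and control cells received none. Titles give 48 h for all groups with TGF-β and no time for control. Per the labels' protocols, cells were starved before treatment for 24 h in medium with 0.2% serum, and TGF-β1 was given at 5 ng per uL, the unit as the labels print it. No RNA library is labelled as carrying a control siRNA, and the labels do not say which medium the groups without MetR were in, so the effects of siHoxc8 and of siRNA delivery cannot be told apart, nor can the effects of methionine and of the medium. All cells are of 1 line, and the labels do not say whether replicate libraries stem from different cultures. P-values therefore reflect only how these libraries vary, which may be technical.

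MHC class I molecules consist of a heavy chain paired with β2-microglobulin, and they carry peptides cut by the proteasome, pumped into the endoplasmic reticulum by the TAP transporter and loaded with the help of tapasin. In immunoproteasomes the catalytic subunits Psmb8, Psmb9 and Psmb10 take the place of Psmb5, Psmb6 and Psmb7. MHC class II molecules consist of an α and a β chain, are held by the invariant chain Cd74 until they reach endosomal compartments, and load peptides there. Nlrc5 and Ciita are the transactivators of the class I and the class II genes, and interferon-γ is the classical inducer of both. Most cells carry class I, whereas class II is mainly a feature of professional antigen-presenting cells and appears on fibroblasts chiefly after interferon-γ.

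Levels are given as FPKM (fragments per kilobase of gene, scaled to library size), for library 1 and then library 2 of each group. The libraries held 15118113 to 20146870 reads, as recovered from the FPKM values. A member was tested if it reached 1 FPKM in at least 2 libraries, which 29 of the 41 did (23 class I and 6 class II). Hoxc8 itself was at 0.463 and 0.0771 FPKM with siHoxc8, 0.417 and 0.614 with MetR, 4.32 and 5.01 with TGF-β and 1.12 and 1.34 in control libraries. Of 8 fibroblast markers in the table, 6 were tested and summed to 5913 to 12723 FPKM per library, while Thy1 was listed at 0 in all of them. The 15 leukocyte and antigen-presenting cell markers summed to 5.98 to 20.7 FPKM per library, most of it from Itgax and Cd68, and 3 of them were at 0 in every library. In RNA from whole cultures, fewer cells carrying a transcript and less transcript per cell cannot be told apart.

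Per RefSeq, which lists 41 of the 41 members, 36 lie on rat chromosome 20, the chromosome of the MHC. Psmb10 and Nlrc5 lie on chromosome 19, B2m on 3, Ciita on 10 and Cd74 on 18. Class I heavy chain genes are close copies of one another, and the table lists 31 of the 67 RT1 symbols in RefSeq, among them 6 of 17 RT1-CE genes. How reads that match several copies were assigned, and whether the counting used strand, is not given in the sources used here, so the split of reads among the heavy chain genes, and between genes that overlap, is uncertain.

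The classical class I heavy chain RT1-A1 had 14.4 and 13.7 FPKM in TGF-β + siHoxc8 cells, 26.1 and 32.1 FPKM in TGF-β + MetR cells, 24.8 and 23.4 FPKM in TGF-β cells and 29.3 and 29.4 FPKM in control cells. Its levels were lowest with siHoxc8, where both libraries lay below all others, and the MetR libraries lay on either side of the control ones. RT1-A2, the other gene of the classical RT1-A region, had 17.1 and 16.2 FPKM with TGF-β + siHoxc8, 21.6 and 29.5 FPKM with TGF-β + MetR, 22.9 and 25.2 FPKM with TGF-β and 39.7 and 39.0 FPKM in control libraries. Here control was clearly highest, siHoxc8 lowest, and the TGF-β libraries lay inside the MetR range.

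Of the non-classical RT1-CE heavy chain genes, RT1-CE7 was the highest, with 16.3 and 15.8 FPKM (TGF-β + siHoxc8), 28.3 and 38.1 FPKM (TGF-β + MetR), 19.3 and 20.4 FPKM (TGF-β) and 40.7 and 41.3 FPKM (control). Control and MetR libraries were above those with TGF-β, and those with siHoxc8 were lowest, with no overlap between groups. RT1-CE10 had 5.65 and 5.82 FPKM in TGF-β + siHoxc8 cells, 9.17 and 10.5 FPKM in TGF-β + MetR cells, 6.45 and 8.20 FPKM in TGF-β cells and 12.2 and 12.5 FPKM in control cells. RT1-CE4 had 6.36 and 5.85 FPKM with TGF-β + siHoxc8, 10.7 and 14.8 FPKM with TGF-β + MetR, 6.90 and 8.44 FPKM with TGF-β and 12.6 and 11.8 FPKM in control libraries. In both genes the siHoxc8 libraries were below the TGF-β ones and the MetR libraries above them, and for RT1-CE4 the MetR range enclosed the control values. RT1-CE5 had 4.08 and 3.94 FPKM (TGF-β + siHoxc8), 7.25 and 8.33 FPKM (TGF-β + MetR), 6.58 and 7.93 FPKM (TGF-β) and 9.12 and 9.58 FPKM (control). Its MetR and TGF-β libraries overlapped, with siHoxc8 below both and control above both. RT1-CE3 was the lowest of those tested, at 0.849 and 0.660 FPKM in TGF-β + siHoxc8 cells, 2.59 and 3.48 FPKM in TGF-β + MetR cells, 1.22 and 0.993 FPKM in TGF-β cells and 2.10 and 1.98 FPKM in control cells. It differed from its relatives in that both MetR libraries exceeded both control libraries.

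RT1-M3-1, whose mouse relative H2-M3 presents N-formylated peptides, had 4.35 and 3.95 FPKM with TGF-β + siHoxc8, 4.98 and 4.82 FPKM with TGF-β + MetR, 7.49 and 8.10 FPKM with TGF-β and 16.7 and 17.1 FPKM in control libraries. The 4 groups did not overlap, and control was highest, followed by TGF-β, MetR and siHoxc8. RT1-N2 had 1.62 and 2.21 FPKM (TGF-β + siHoxc8), 2.68 and 2.09 FPKM (TGF-β + MetR), 4.70 and 4.22 FPKM (TGF-β) and 9.03 and 10.9 FPKM (control). Its siHoxc8 and MetR libraries overlapped at the bottom, below TGF-β, with control on top. RT1-N3 had 6.72 and 5.56 FPKM in TGF-β + siHoxc8 cells, 4.87 and 4.93 FPKM in TGF-β + MetR cells, 5.28 and 7.07 FPKM in TGF-β cells and 10.5 and 9.65 FPKM in control cells. Control was above all treated libraries, the siHoxc8 libraries lay inside the TGF-β range, and MetR was lowest. RT1-T24-1 had 6.31 and 4.53 FPKM with TGF-β + siHoxc8, 0.695 and 0.651 FPKM with TGF-β + MetR, 1.35 and 1.60 FPKM with TGF-β and 6.05 and 4.88 FPKM in control libraries. This gene stood apart from the other heavy chains because its siHoxc8 libraries overlapped with control, while both MetR libraries were below TGF-β.

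Replicates spread more widely for the remaining heavy chains. RT1-T24-4 had 6.21 and 4.84 FPKM (TGF-β + siHoxc8), 5.14 and 10.7 FPKM (TGF-β + MetR), 7.002 and 7.41 FPKM (TGF-β) and 16.5 and 9.11 FPKM (control) and its MetR libraries differed widely. RT1-T24-3 had 1.06 and 1.02 FPKM in TGF-β + siHoxc8 cells, 0.520 and 0.353 FPKM in TGF-β + MetR cells, 1.03 and 0.677 FPKM in TGF-β cells and 1.82 and 1.22 FPKM in control cells, and its MetR libraries were the lowest. RT1-M6-2 had 0.945 and 1.94 FPKM with TGF-β + siHoxc8, 2.74 and 1.69 FPKM with TGF-β + MetR, 2.41 and 1.80 FPKM with TGF-β and 3.93 and 2.95 FPKM in control libraries, with the treated groups overlapping below control. RT1-S3 had 1.31 and 0.530 FPKM (TGF-β + siHoxc8), 1.12 and 1.16 FPKM (TGF-β + MetR), 0.872 and 1.10 FPKM (TGF-β) and 3.75 and 2.20 FPKM (control), again with overlap among treated groups and control above them.

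The light chain B2m was the most abundant member, with 243 and 215 FPKM with TGF-β + siHoxc8, 326 and 372 FPKM with TGF-β + MetR, 205 and 252 FPKM with TGF-β and 421 and 398 FPKM in control libraries. The siHoxc8 libraries lay inside the TGF-β range, MetR was above both, and control was above MetR. Summed over the 21 heavy chain genes listed, class I came to 93.8 and 87.2 FPKM in TGF-β + siHoxc8 cells, 129.6 and 164 FPKM in TGF-β + MetR cells, 119 and 128 FPKM in TGF-β cells and 215 and 205 FPKM in control cells. The sum had the same order of group means as RT1-A2, with siHoxc8 below TGF-β, MetR above TGF-β and control on top.

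Tap1 and Tap2, the subunits of the peptide transporter, had a different order from the heavy chains. Tap1 had 13.8 and 14.1 FPKM (TGF-β + siHoxc8), 17.1 and 24.9 FPKM (TGF-β + MetR), 12.8 and 13.3 FPKM (TGF-β) and 15.0 and 14.7 FPKM (control). Its MetR libraries were above all others, while the remaining groups lay close together. Tap2 had 1.55 and 4.31 FPKM in TGF-β + siHoxc8 cells, 3.96 and 5.73 FPKM in TGF-β + MetR cells, 1.17 and 1.08 FPKM in TGF-β cells and 1.61 and 1.60 FPKM in control cells. Both MetR values were above control and TGF-β, but the siHoxc8 libraries lay far apart, with library 1 near control and library 2 inside the MetR range. Tapbp (tapasin), the bridge between TAP and the heavy chain, had 64.2 and 61.0 FPKM with TGF-β + siHoxc8, 34.3 and 37.4 FPKM with TGF-β + MetR, 43.5 and 47.8 FPKM with TGF-β and 78.4 and 79.5 FPKM in control libraries. The 4 groups did not overlap, and MetR was lowest.

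The immunoproteasome subunits each had a pattern of their own. Psmb8 had 18.4 and 13.3 FPKM (TGF-β + siHoxc8), 15.7 and 22.8 FPKM (TGF-β + MetR), 7.43 and 10.9 FPKM (TGF-β) and 22.2 and 17.1 FPKM (control). TGF-β was lowest and the other groups overlapped. Psmb9 had 13.5 and 11.4 FPKM in TGF-β + siHoxc8 cells, 5.22 and 5.003 FPKM in TGF-β + MetR cells, 10.1 and 12.9 FPKM in TGF-β cells and 25.4 and 27.0 FPKM in control cells. Control was highest and MetR lowest, with siHoxc8 and TGF-β overlapping between them. Psmb10 had 42.8 and 39.5 FPKM with TGF-β + siHoxc8, 15.5 and 20.5 FPKM with TGF-β + MetR, 9.47 and 15.1 FPKM with TGF-β and 41.0 and 40.2 FPKM in control libraries. The siHoxc8 libraries were at the control level, whereas those with MetR and with TGF-β were far below it. Nlrc5, the class I transactivator, was low throughout, with 0.990 and 0.921 FPKM (TGF-β + siHoxc8), 1.83 and 1.48 FPKM (TGF-β + MetR), 0.698 and 0.552 FPKM (TGF-β) and 1.25 and 1.40 FPKM (control). Its TGF-β libraries were lowest and its MetR libraries highest.

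On the class II side, the invariant chain Cd74 had 1.95 and 1.70 FPKM in TGF-β + siHoxc8 cells, 9.73 and 13.5 FPKM in TGF-β + MetR cells, 5.45 and 6.01 FPKM in TGF-β cells and 33.3 and 36.2 FPKM in control cells. The groups did not overlap, and the order was control, MetR, TGF-β and siHoxc8 from high to low. The α chain RT1-Ba, a relative of human HLA-DQA, had 0.437 and 0.445 FPKM with TGF-β + siHoxc8, 1.78 and 1.93 FPKM with TGF-β + MetR, 1.63 and 2.42 FPKM with TGF-β and 7.86 and 6.25 FPKM in control libraries. Its partner chain RT1-Bb had 0.0490 and 0 FPKM (TGF-β + siHoxc8), 0.478 and 0.890 FPKM (TGF-β + MetR), 0.183 and 0.211 FPKM (TGF-β) and 1.68 and 1.64 FPKM (control). For RT1-Bb the siHoxc8 libraries held 3 and 0 reads, against 12 and 14 reads in the TGF-β ones. Both genes were highest in control and lowest with siHoxc8.

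RT1-Db1, the β chain of the RT1-D molecule that corresponds to human HLA-DR, was the most abundant class II chain, with 1.82 and 1.79 FPKM in TGF-β + siHoxc8 cells, 7.002 and 6.88 FPKM in TGF-β + MetR cells, 6.30 and 8.38 FPKM in TGF-β cells and 10.8 and 12.1 FPKM in control cells. Its α chain RT1-Da had 0.106 and 0.176 FPKM with TGF-β + siHoxc8, 1.60 and 1.90 FPKM with TGF-β + MetR, 1.97 and 1.998 FPKM with TGF-β and 5.30 and 3.78 FPKM in control libraries. The siHoxc8 libraries of RT1-Da rested on 4 and 8 reads, against 80 and 82 in TGF-β libraries. In both genes control was on top and siHoxc8 far below the rest, and the MetR libraries lay within the TGF-β range for RT1-Db1 and just under it for RT1-Da. Ciita, the class II transactivator, had 1.83 and 1.85 FPKM (TGF-β + siHoxc8), 3.59 and 4.45 FPKM (TGF-β + MetR), 3.44 and 2.86 FPKM (TGF-β) and 2.78 and 3.22 FPKM (control). It did not follow the chains, since TGF-β and control libraries overlapped and MetR libraries were highest, and only siHoxc8 lay below the others.

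Summed over RT1-Ba, RT1-Bb, RT1-Da and RT1-Db1, class II chains came to 2.41 and 2.41 FPKM with TGF-β + siHoxc8, 10.9 and 11.6 FPKM with TGF-β + MetR, 10.1 and 13.0 FPKM with TGF-β and 25.7 and 23.8 FPKM in control libraries. The siHoxc8 libraries were the lowest, and those with MetR lay inside the TGF-β range. As a share of the summed class I heavy chains, these class II chains made up 2.57% and 2.77% in TGF-β + siHoxc8 libraries, 8.39% and 7.07% in TGF-β + MetR libraries, 8.45% and 10.2% in TGF-β libraries and 11.9% and 11.6% in control libraries. The share was highest in control, followed by TGF-β, MetR just below it, and siHoxc8 far below.

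**Figure D1:**
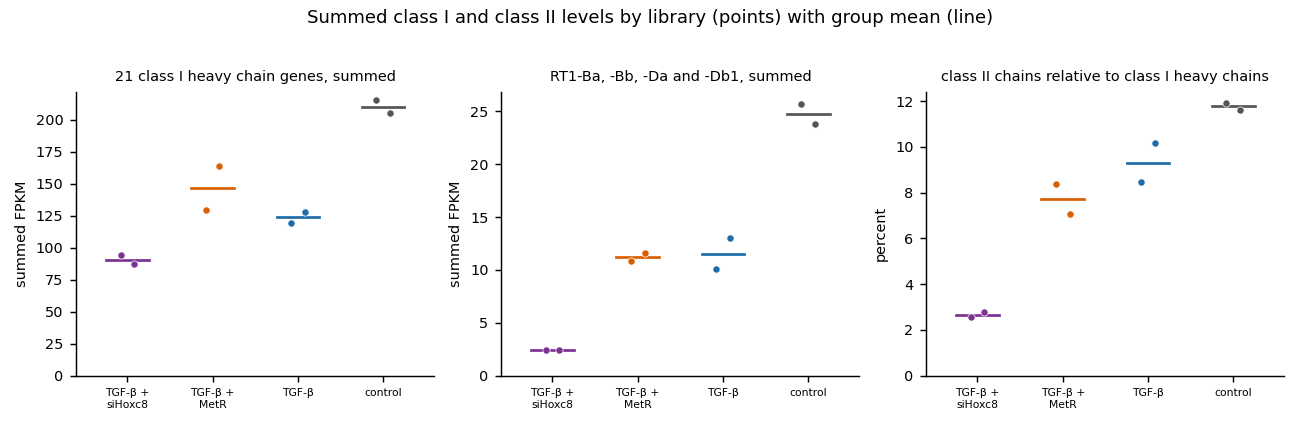
Summed FPKM of the 21 class I heavy chain genes (left), of 4 class II chain genes (middle) and the second sum as a percent of the first (right), by group. Points are single libraries, lines are group means of 2 libraries, and all axes start at 0. The TGF-β + siHoxc8 libraries are lowest in every panel and the control libraries highest.

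**Figure D2:**
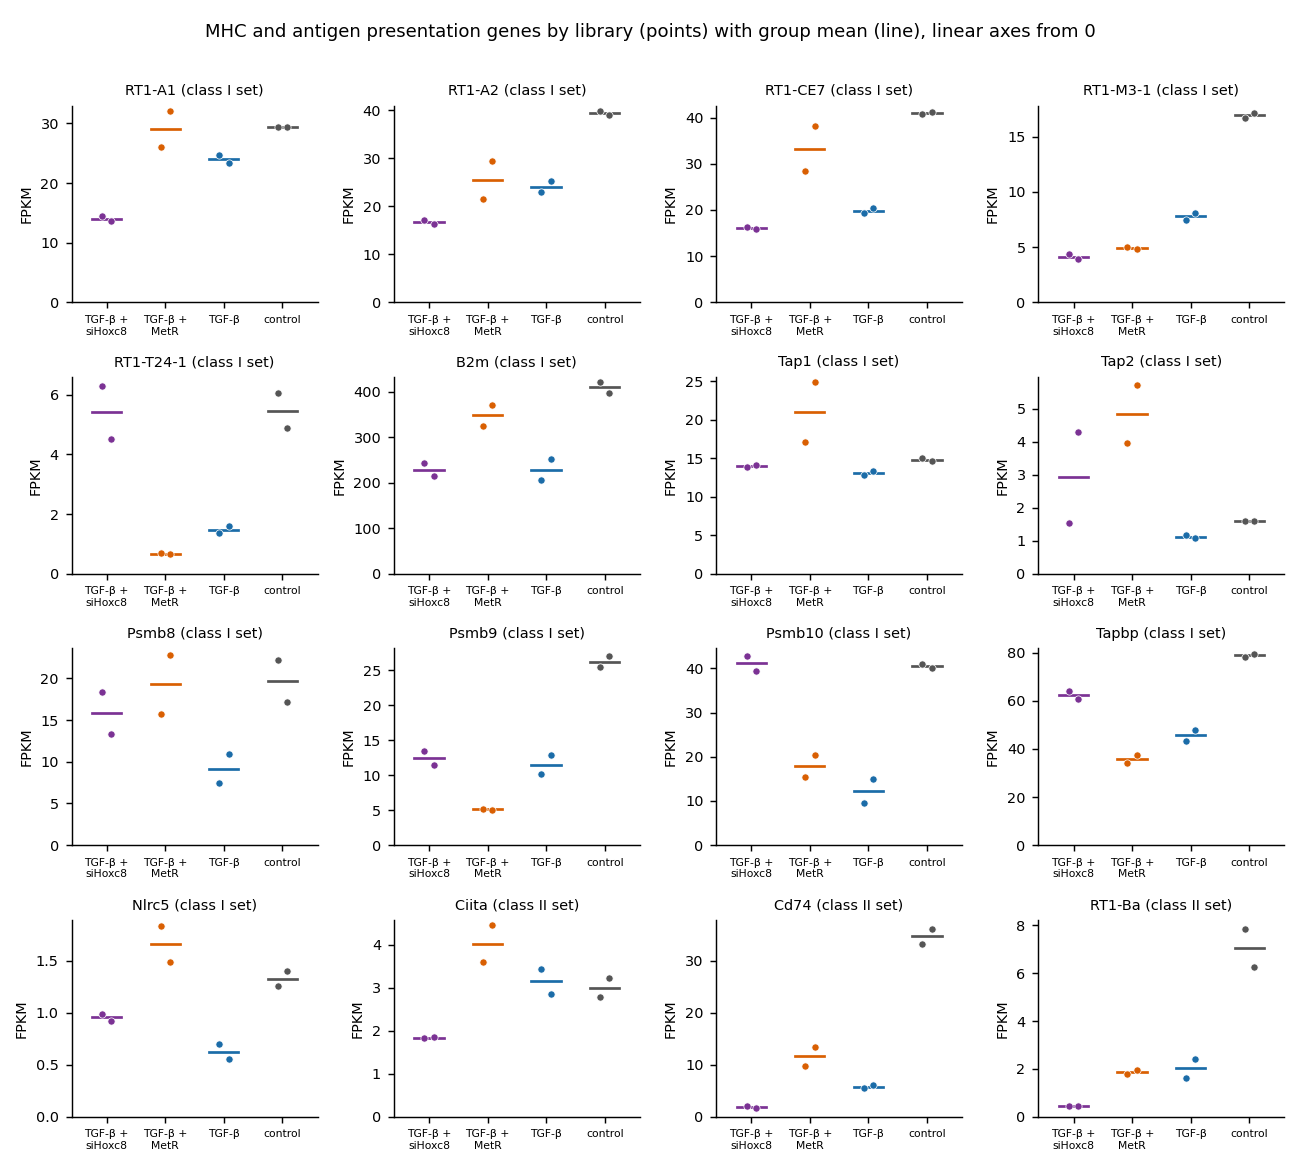
FPKM of 16 members in each of the 8 libraries, 1 panel per gene with its own linear axis from 0. Points are libraries and lines are group means of 2. Psmb10 and RT1-T24-1 have siHoxc8 libraries at the control level, Psmb9 and Tapbp are lowest with MetR, and Cd74 is lowest with siHoxc8 and highest in control.

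The bases upstream of the genes are shown for members that moved together or apart in the comparisons. They are the 250 bases before each start site in RefSeq (GRCr8), and 35 of the 41 members had an entry. Matches on either strand to 3 motifs are in capitals: the interferon-stimulated response element (ISRE, here GAAA, any 2 bases and GAAA), the binding motif of NF-κB (GGG, any 2 bases, TT, any base and CC) and the Y box bound by NF-Y (CCAAT). The Y box is part of the SXY module through which Nlrc5 and Ciita act. The first pair are heavy chain genes whose RNA fell with TGF-β, of which RT1-CE4 but not RT1-A2 was raised with MetR.
RT1-A2, chr20:4872621-4872870, plus strand: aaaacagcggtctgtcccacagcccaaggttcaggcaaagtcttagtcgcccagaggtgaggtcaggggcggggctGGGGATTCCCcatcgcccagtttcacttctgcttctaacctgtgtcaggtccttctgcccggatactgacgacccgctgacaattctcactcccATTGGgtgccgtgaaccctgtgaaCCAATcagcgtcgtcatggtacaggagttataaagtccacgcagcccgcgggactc
RT1-CE4, chr20:3509157-3509406, minus strand: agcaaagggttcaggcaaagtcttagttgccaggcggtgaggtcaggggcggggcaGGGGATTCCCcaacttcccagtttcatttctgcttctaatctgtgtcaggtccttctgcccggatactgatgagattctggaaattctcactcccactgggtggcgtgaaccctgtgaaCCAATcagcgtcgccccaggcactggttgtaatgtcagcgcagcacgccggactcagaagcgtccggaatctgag
Both carry the same NF-κB match, ggggattccc, and a Y box, and aligned over the window they were 72.1% identical. RT1-CE10 and RT1-CE4 were 82.1% identical over the same window, and RT1-CE5 and RT1-A2 82.2%. In B2m the ISRE and the NF-κB match begin 150 and 137 bases upstream of the start, and the Y box 64 bases upstream.
B2m, chr3:129549080-129549329, plus strand: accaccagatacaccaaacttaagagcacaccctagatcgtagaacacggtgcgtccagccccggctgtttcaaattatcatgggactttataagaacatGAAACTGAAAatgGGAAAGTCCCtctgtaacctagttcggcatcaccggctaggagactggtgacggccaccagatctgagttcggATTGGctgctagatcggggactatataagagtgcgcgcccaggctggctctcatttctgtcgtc
Tap1 and Psmb9 are neighbours on opposite strands, with starts 457 bases apart, so that their upstream windows overlap by 44 bases.
Tap1, chr20:4668544-4668793, minus strand: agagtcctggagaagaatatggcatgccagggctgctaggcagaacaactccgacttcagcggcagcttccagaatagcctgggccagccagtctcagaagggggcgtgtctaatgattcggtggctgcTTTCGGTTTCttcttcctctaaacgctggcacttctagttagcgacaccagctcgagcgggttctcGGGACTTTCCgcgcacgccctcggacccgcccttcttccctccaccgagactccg
Psmb9, chr20:4668750-4668999, plus strand: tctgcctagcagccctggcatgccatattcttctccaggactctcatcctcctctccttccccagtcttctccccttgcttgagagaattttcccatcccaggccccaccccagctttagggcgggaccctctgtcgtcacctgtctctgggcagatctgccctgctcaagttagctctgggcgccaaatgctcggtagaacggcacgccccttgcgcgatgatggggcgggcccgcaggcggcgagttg
The Tap1 window has an ISRE and an NF-κB match, while none of the 3 motifs was found in these letters of the Psmb9 window. The Tap1 matches begin 121 and 55 bases upstream of Tap1. They thus lie between the starts of both genes, and are missing for Psmb9 only because its window ends before them. Psmb10, raised with siHoxc8, has 2 ISRE matches, as has Tapbp, also raised, whereas RT1-T24-1 and Psmb8, raised as well, have 0. B2m, RT1-N3, RT1-S3, Tap1 and Tap2 have 1 each and were not called with siHoxc8 over TGF-β.
Psmb10, chr19:50743293-50743542, minus strand: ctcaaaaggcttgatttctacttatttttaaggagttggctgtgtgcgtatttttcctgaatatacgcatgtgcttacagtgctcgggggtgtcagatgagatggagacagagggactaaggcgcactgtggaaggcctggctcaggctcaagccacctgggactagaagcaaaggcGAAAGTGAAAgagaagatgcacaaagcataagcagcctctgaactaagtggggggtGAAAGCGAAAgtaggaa
The class II genes Cd74 and RT1-Ba, lowered with siHoxc8, each have a Y box and at least 1 NF-κB match.
Cd74, chr18:56526956-56527205, plus strand: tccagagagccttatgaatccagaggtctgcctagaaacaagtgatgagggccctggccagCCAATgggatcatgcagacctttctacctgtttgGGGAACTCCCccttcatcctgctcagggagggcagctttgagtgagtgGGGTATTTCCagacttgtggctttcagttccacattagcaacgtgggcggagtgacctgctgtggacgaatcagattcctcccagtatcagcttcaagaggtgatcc
RT1-Ba, chr20:4576807-4577056, plus strand: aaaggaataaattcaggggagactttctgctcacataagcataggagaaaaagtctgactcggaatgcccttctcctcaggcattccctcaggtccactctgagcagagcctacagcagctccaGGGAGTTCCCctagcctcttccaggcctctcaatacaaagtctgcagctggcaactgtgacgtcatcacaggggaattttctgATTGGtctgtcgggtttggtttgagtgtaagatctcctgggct
An ISRE was found in 8 of 35 member windows, against 3.41% of all 33469 windows in the RefSeq table. NF-κB matches were found in 10 of 35, against 4.36%, and Y boxes in 25 of 35, against 34.02%. Windows of related genes are not independent, and those of RT1-A1, RT1-A2, RT1-CE10 and RT1-CE4 hold the same NF-κB match. All 5 windows of Cd74, RT1-Ba, RT1-Bb, RT1-Da and RT1-Db1 held a Y box and none an ISRE, and an NF-κB match was found in 2 of the 5, those of Cd74 and RT1-Ba. A match describes the letters only, and binding was not measured here.

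With TGF-β, class I and class II transcripts fell together relative to control. Of the 23 class I members tested, 16 were lowered and 7 not called, and of the 6 class II members 5 were lowered and 1 not called (limma, adjusted p under 0.05). Over all 12315 genes tested, 28.6% were lowered and 10.3% raised. That balance depended on scaling, since 17.0% were lowered and 19.1% raised under median ratio rescaling and 17.1% and 16.9% under quantile normalization, while 16 and 14 of the 29 members were lowered and none raised. The median log2 fold change was -0.69 over class I members and -1.02 over class II members, against -0.19 over all genes. Rescaling the libraries by median ratios put the median of all genes at 0.0096, of class I members at -0.48 and of class II members at -0.89. In 28 of 29 members both TGF-β libraries were below both control libraries, which held for 52.6% of all genes. Fold changes are differences of log2(FPKM + 1), which understates the change of low genes.

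On the log2(FPKM + 1) scale the largest fall was in Cd74, which averaged 5.73 ± 0.391 FPKM with TGF-β and 34.7 ± 2.04 FPKM in control (SD, n = 2 each), a log2 fold change of -2.41 ± 0.16 (SE, limma adjusted p = 8.17e-05). Among class II chains, RT1-Ba fell by 1.42, RT1-Bb by 1.15, RT1-Da by 0.88 and RT1-Db1 by 0.59 on the log2 scale. In FPKM alone RT1-Bb fell further than Cd74, 8.44-fold against 6.07-fold. Their transactivator Ciita did not pass the test, with 0.054 ± 0.15 (adjusted p = 0.801, limma). The immunoproteasome subunits fell too, with Psmb10 at -1.68 ± 0.21 (adjusted p = 0.000921), Psmb9 at -1.13 ± 0.14 and Psmb8 at -1.03 ± 0.25. B2m averaged 229 ± 33.3 FPKM with TGF-β and 409.9 ± 16.3 FPKM in control (SD, n = 2 each), with a log2 fold change of -0.85 ± 0.13 (limma adjusted p = 0.00257).

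Of the 15 heavy chains tested, 10 were lowered, against 28.6% of all genes. They included RT1-T24-1 (-1.38 ± 0.18), RT1-M3-1 (-1.03 ± 0.11), RT1-CE7 (-1.01 ± 0.14) and RT1-N2 (-1.002 ± 0.17). RT1-S3, RT1-CE10, RT1-A2, RT1-N3, RT1-CE4 and RT1-CE3 were lowered by between -0.97 and -0.53 on this scale, where RT1-S3 fell 3.01-fold in FPKM and RT1-CE7 2.07-fold. RT1-A1, RT1-CE5, RT1-T24-3, RT1-M6-2 and RT1-T24-4 were not called, with log2 fold changes of -0.28 to -0.70. Tapbp changed by -0.78 ± 0.09 and Nlrc5 by -0.52 ± 0.15, both called. The transporter subunits were not called, with Tap1 at -0.17 ± 0.16 and Tap2 at -0.29 ± 0.32. Tap1 turned to 0.046 under median ratio rescaling and 0.066 under quantile normalization, and Tap2 to 0.022 under quantile normalization.

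Calls for 12 of these 21 members held in every alternative setting in which they were tested, namely Cd74, Psmb10, RT1-Ba, RT1-T24-1, RT1-Bb, Psmb9, RT1-M3-1, RT1-CE7, RT1-N2, B2m, Tapbp and RT1-CE10. The other 9 rested on single libraries or settings. Median ratio rescaling ended 5 of them (Nlrc5, RT1-N3, RT1-Db1, RT1-CE4 and RT1-CE3, limma adjusted p = 0.0620 to 0.0882), and quantile normalization those and RT1-S3 and RT1-Da (0.0560 to 0.373). Without control library 1, all 9 missed the threshold (Nlrc5, RT1-N3, RT1-S3, Psmb8, RT1-Db1, RT1-Da, RT1-CE4, RT1-CE3 and RT1-A2, limma adjusted p = 0.0518 to 0.158). Without TGF-β library 1, 8 of them did (all but RT1-Da, adjusted p = 0.0515 to 0.111, limma), and without control library 2, 6 did (Nlrc5, RT1-N3, RT1-Db1, RT1-CE4, RT1-CE3 and RT1-A2, 0.0531 to 0.143). Leaving out TGF-β library 2 ended the calls of Nlrc5, RT1-S3 and RT1-CE3 (0.0667 to 0.146), and either siHoxc8 library those of Nlrc5 and RT1-CE3 (0.0538 to 0.0588). RT1-A1 and RT1-CE5 gained a call without either MetR library (0.0172 to 0.0455).

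Other genes of the pathway were taken from lists of known components. Of 15 transcription factors of the class I and II genes, 10 were lowered with TGF-β and 5 not called, with a list median of -0.41. Among all genes tested, 28.6% were lowered and the median was -0.19. That share was 17.0% under median ratio rescaling, where these lists were not counted. Irf1, a transcription factor induced by interferon-γ, had 21.9 and 22.9 FPKM in TGF-β + siHoxc8 cells, 13.8 and 17.7 FPKM in TGF-β + MetR cells, 7.59 and 7.92 FPKM in TGF-β cells and 26.2 and 25.9 FPKM in control cells. TGF-β libraries were the lowest for it and control the highest, with no overlap (-1.63 ± 0.13, limma adjusted p = 0.000156). The NF-κB subunit Relb changed by -1.30 ± 0.33 and Rfx5, a subunit of the factor that binds the X box of class II promoters, by -1.26 ± 0.13. Among 9 interferon receptors and signalling genes 6 were lowered, led by the receptor-bound kinases Jak2 (-1.19 ± 0.23) and Jak1 (-0.86 ± 0.09), the feedback inhibitor Socs3 (-0.77 ± 0.12) and the interferon-γ receptor chain Ifngr2 (-0.68 ± 0.09).

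Of 9 peptide loading genes 3 were lowered, Tapbpl, a relative of tapasin that edits peptides (-0.84 ± 0.10), the trimming peptidase Erap1 (-0.43 ± 0.10) and the glucosidase subunit Ganab (-0.32 ± 0.09). Of 7 proteasome activators and constitutive subunits 2 were lowered, the activator subunit Psme2 (-1.04 ± 0.11) and Psme4 (-0.36 ± 0.09). Both shares were near the 28.6% of all genes lowered. Among 6 class II processing genes the protease Ctsb was raised (0.47 ± 0.11), and the protease Ctsl (-0.65 ± 0.15) and the ubiquitin ligase Marchf8 (-0.60 ± 0.09) were lowered. The MHC-like molecule Mr1, which presents vitamin B metabolites, was lowered (-1.22 ± 0.22), and Procr, an MHC-like receptor for protein C, was raised (1.22 ± 0.14), among 5 such genes. Cd276, an inhibitory ligand of the B7 family, was lowered (-0.47 ± 0.12), 1 of 3 costimulation and checkpoint ligands tested. In the same contrast the fibroblast markers Pdgfra (-1.58 ± 0.17) and Pdgfrb (-1.36 ± 0.31) were lowered and Vim (1.44 ± 0.13) raised. The summed fibroblast markers were 11748.5 and 12723 FPKM in the lower and the higher library with TGF-β and 6973 and 7039 FPKM in control, and their part in the results on the members was not tested.

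**Figure D3:**
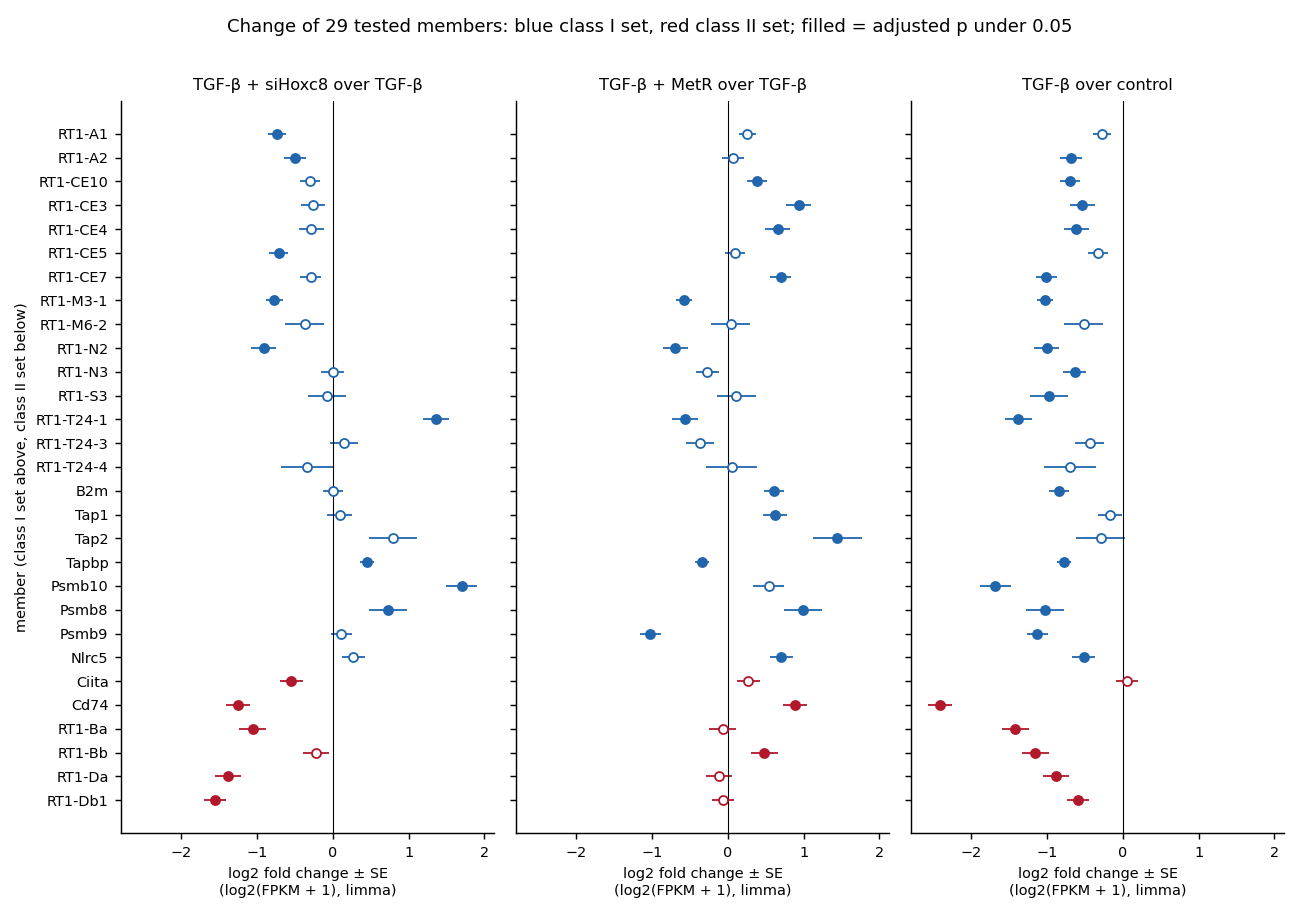
Log2 fold change with its SE (limma, log2(FPKM + 1)) of the 29 members tested, for TGF-β + siHoxc8 over TGF-β (left), TGF-β + MetR over TGF-β (middle) and TGF-β over control (right). Blue marks class I members and red class II members, and filled points passed an adjusted p of 0.05. Most points lie left of 0 for TGF-β, while the other panels hold members on both sides, with class II to the left for siHoxc8.

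With methionine restriction under TGF-β, 9 of 23 class I members were raised, 5 lowered and 9 not called relative to TGF-β alone, and of 6 class II members 2 were raised and 4 not called. Over all genes 34.8% were raised and 19% lowered, so the class I shares were near those of genes at large. Under median ratio rescaling, 25.5% of all genes were raised and 26.6% lowered, against 9 and 6 of the 29 members. The class I median was 0.11 and the class II median 0.11, against 0.18 over all genes, and under median ratio rescaling, which brought all genes to -0.004, they were -0.0019 and -0.058.

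Tap2 was raised most, by 1.44 ± 0.32 on the log2 scale (limma adjusted p = 0.00706), with both MetR libraries above both TGF-β libraries. Psmb8 (0.99 ± 0.25), RT1-CE3 (0.93 ± 0.16), Cd74 (0.89 ± 0.16), Nlrc5 (0.71 ± 0.15), RT1-CE7 (0.70 ± 0.14), RT1-CE4 (0.66 ± 0.16), Tap1 (0.62 ± 0.16), B2m (0.61 ± 0.13), RT1-Bb (0.48 ± 0.17) and RT1-CE10 (0.38 ± 0.13) were raised as well. B2m averaged 349 ± 32.8 FPKM with MetR and 229 ± 33.3 FPKM with TGF-β alone (SD, n = 2 each). Of the 15 heavy chains tested 4 were raised and 3 lowered, against 34.8% and 19% of all genes. The 4 raised were all among the 5 RT1-CE genes tested, close copies for which the split of reads is uncertain. They became 3 under median ratio rescaling (without RT1-CE10) and 2 under quantile normalization (without RT1-CE10 and RT1-CE4). The classical RT1-A1 (0.26 ± 0.12) and RT1-A2 (0.069 ± 0.15) were not called. The 6 RT1-CE genes listed made up 36.1% of the summed heavy chain FPKM with siHoxc8, 45.5% with MetR, 35.0% with TGF-β and 36.7% in control, as group means.

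Psmb9 moved the other way from its neighbour Tap1, and was lowered by 1.02 on the log2 scale (SE 0.14, limma adjusted p = 0.000891). RT1-N2 (-0.69 ± 0.17), RT1-M3-1 (-0.58 ± 0.11), RT1-T24-1 (-0.56 ± 0.18) and Tapbp (-0.34 ± 0.09) were lowered too. The class II chains RT1-Ba (-0.070 ± 0.18), RT1-Da (-0.12 ± 0.17) and RT1-Db1 (-0.060 ± 0.15) were not called, nor was Ciita (0.27 ± 0.15), although Cd74 rose. Psmb10 was not called either (0.54 ± 0.21, limma adjusted p = 0.0601), and it passed when only genes averaging 5 FPKM or more were tested, and without TGF-β library 2 or MetR library 1 (0.0125 to 0.0479).

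Calls of B2m, Cd74, RT1-M3-1, Psmb9, RT1-CE7 and RT1-CE3 held in every alternative in which they were tested. Median ratio rescaling ended those of RT1-CE10 and RT1-Bb (limma adjusted p = 0.0677 to 0.249), and quantile normalization those and Tap1 and RT1-CE4 (0.0670 to 0.383). RT1-N3 gained a call, as lowered, under median ratio rescaling (limma adjusted p = 0.0373) and quantile normalization (0.0431). Leaving out TGF-β library 1 ended 7 of the 16 calls (RT1-CE10, RT1-N2, RT1-T24-1, Tap1, Psmb8, RT1-Bb and RT1-CE4, limma adjusted p = 0.0543 to 0.188). Leaving out TGF-β library 2 ended 4 (RT1-T24-1, Tap1, RT1-Bb and Tapbp, 0.0541 to 0.127), MetR library 2 ended 4 (RT1-CE10, RT1-T24-1, Psmb8 and RT1-Bb, 0.0632 to 0.175) and MetR library 1 ended that of RT1-T24-1 (0.0558). Leaving out either control or either siHoxc8 library ended those of RT1-CE10 and RT1-Bb (0.0700 to 0.0809). A fit with library weights ended 8 calls, among them those of Tap2 and Nlrc5 (limma adjusted p = 0.0550 to 0.238). Of the 29 members tested, library 2 exceeded library 1 of the MetR group in 16 of 23 class I and 5 of 6 class II, and in 7217 of all 12315 genes. The TGF-β group had the same counts, 16 of 23 and 5 of 6, with 6751 of all genes. RT1-A1 and RT1-A2 gained a call, as raised, without MetR library 1 (0.0073 to 0.0361).

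Among the 15 transcription factors, 7 were raised with MetR over TGF-β and 8 not called, where 34.8% of all genes were raised. Relb changed by 1.67 ± 0.33, Irf1 by 0.93 ± 0.13, the NF-Y subunit Nfyb by 0.64 ± 0.15 and Irf9, a subunit of the ISRE-binding complex ISGF3, by 0.61 ± 0.13. The values of Relb were 9.11 and 11.1 FPKM with TGF-β + siHoxc8, 10.7 and 25.3 FPKM with TGF-β + MetR, 4.77 and 4.28 FPKM with TGF-β and 13.2 and 12.0 FPKM in control libraries, so the MetR libraries differed widely from each other while both exceeded those with TGF-β. Of 9 interferon receptor and signalling genes 5 were raised, among them Jak2 (0.77 ± 0.23), the interferon-γ receptor chain Ifngr1 (0.54 ± 0.15), the interferon-α receptor chain Ifnar2 (0.500 ± 0.11) and the kinase Tyk2 (0.40 ± 0.12). Of 9 loading genes, the chaperone Hspa5 (1.34 ± 0.22) and Ganab (0.44 ± 0.09) were raised and Erap1 (-0.83 ± 0.10) and the disulfide isomerase Pdia3 (-0.47 ± 0.11) lowered. Fcgrt, the heavy chain of the neonatal Fc receptor, which also pairs with B2m, was lowered (-1.11 ± 0.16).

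Of the activator and constitutive proteasome genes, 1 of 7 was raised with MetR, the activator Psme3 (0.61 ± 0.16). Of the 6 class II processing genes Ctsl (0.61 ± 0.15) and Marchf8 (0.26 ± 0.09) were raised and the protease Ctsd (-0.39 ± 0.10) lowered. Among all genes 34.8% were raised and 19% lowered. The costimulatory ligand Cd80 was raised (0.65 ± 0.18), 1 of 3 ligands tested. Itgax, an integrin chain known from dendritic cells, had 5.47 and 5.32 FPKM (TGF-β + siHoxc8), 18.7 and 12.9 FPKM (TGF-β + MetR), 5.81 and 5.34 FPKM (TGF-β) and 4.84 and 4.95 FPKM (control). Both MetR libraries were above all others (1.33 ± 0.17, limma adjusted p = 0.000629), whereas the other leukocyte marker tested, Cd68, was not called. The summed leukocyte markers were 13.9 to 20.7 FPKM with MetR and 7.46 to 7.61 FPKM with TGF-β, and their part in the rise of Cd74 was not tested. The summed fibroblast markers were 5913 and 8671 FPKM in the lower and the higher library with MetR and 11748.5 and 12723 FPKM with TGF-β. Among them Pdgfrb (1.24 ± 0.31) was raised and Vim (-1.04 ± 0.13) and S100a4 (-0.70 ± 0.21) lowered, and Col3a1 was at 506 and 105 FPKM in MetR libraries 1 and 2, against 367 and 374 FPKM with TGF-β, and the part of these shifts in the results on the members was not tested.

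With siHoxc8 under TGF-β, class II transcripts were lower than with TGF-β alone, and knockdown and siRNA delivery cannot be told apart. Of 6 class II members 5 were lowered and 1 not called, and of 23 class I members 4 were raised, 5 lowered and 14 not called. Over all genes 28.1% were raised and 15.7% lowered. That total was near the share of class I members called, but class I members did not share the excess of raised genes. Of the 15 heavy chains tested 1 was raised and 5 were lowered. Under median ratio rescaling, 20.9% of all genes were raised and 22.3% lowered, against 3 and 12 of the 29 members. The class II median was -1.16 and the class I median -0.079, against 0.13 over all genes, and under median ratio rescaling, with all genes at -0.011, they were -1.28 and -0.16. Each of the 6 class II members was lower in both siHoxc8 libraries than in both TGF-β libraries, which held for 29.2% of all genes.

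On the log2(FPKM + 1) scale Cd74 and 3 of the class II chains had the largest falls with siHoxc8 among the members tested. RT1-Db1 averaged 1.81 ± 0.0199 FPKM with siHoxc8 and 7.34 ± 1.48 FPKM with TGF-β (SD, n = 2 each), a log2 fold change of -1.56 ± 0.15 (limma adjusted p = 0.000233). RT1-Da changed by -1.39 ± 0.17, Cd74 by -1.25 ± 0.16, RT1-Ba by -1.06 ± 0.18 and Ciita by -0.55 ± 0.15. In FPKM alone RT1-Da fell 14.1-fold, RT1-Bb 8.04-fold, RT1-Ba 4.59-fold, RT1-Db1 4.06-fold and Cd74 3.14-fold, with few siHoxc8 reads for RT1-Da and RT1-Bb. RT1-Bb was not called (adjusted p = 0.330, limma), being near 0 in both groups, and it passed the test in limma-voom on recovered reads (0.0242).

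On the class I side Psmb10 was raised by 1.70 ± 0.21 on the log2 scale (limma adjusted p = 0.000692). It averaged 41.2 ± 2.36 FPKM with siHoxc8 and 12.3 ± 3.95 FPKM with TGF-β (SD, n = 2 each). RT1-T24-1 (1.36 ± 0.18), Psmb8 (0.73 ± 0.25) and Tapbp (0.45 ± 0.09) were raised as well. The heavy chains RT1-N2 (-0.91 ± 0.17), RT1-M3-1 (-0.77 ± 0.11), RT1-A1 (-0.73 ± 0.12), RT1-CE5 (-0.72 ± 0.13) and RT1-A2 (-0.501 ± 0.15) were lowered. B2m (0.0062 ± 0.13), Psmb9 (0.11 ± 0.14), Tap1 (0.090 ± 0.16), Tap2 (0.79 ± 0.32) and Nlrc5 (0.27 ± 0.15) were not called. Those of B2m, Psmb9 and Tap1 turned below 0 under both rescalings, to between -0.16 and -0.033. RT1-CE7, RT1-CE10 and RT1-CE4 were not called, at -0.28 to -0.30, but RT1-CE7 and RT1-CE10 passed as lowered under both rescalings (limma adjusted p = 0.0209 to 0.0472, with RT1-CE4 under quantile normalization).

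Calls of 10 of these 14 members held in every alternative in which they were tested (Cd74, Psmb10, RT1-M3-1, RT1-N2, RT1-T24-1, RT1-Ba, RT1-Db1, RT1-Da, RT1-CE5 and RT1-A1). Ciita, Psmb8 and RT1-A2 lost theirs without TGF-β library 1 (limma adjusted p = 0.0617 to 0.248) and without siHoxc8 library 2 (0.0556 to 0.126), and those 3 and Tapbp without siHoxc8 library 1 (0.0706 to 0.244). Psmb8 also lost its call under median ratio rescaling (0.0891) and quantile normalization (0.0922), and with Ciita and RT1-A2 when no filter was used (at most 0.108). RT1-A2 lost its call without TGF-β library 2 (0.121), and Psmb8 and RT1-A2 without either control library (0.0527 to 0.0639). Tap2 gained a call without siHoxc8 library 1 (0.0087), RT1-CE10 without TGF-β library 1 (0.0429) and RT1-CE7 without either MetR library (0.0108 to 0.0111).

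Of the 15 transcription factors, 5 were raised with siHoxc8, 3 lowered and 7 not called, near the 28.1% and 15.7% of all genes. Irf1 was raised (1.42 ± 0.13), as were Relb (1.001 ± 0.33) and Nfyb (0.96 ± 0.15), while Irf9 was lowered (-0.87 ± 0.13). Outside the 4 largest changes, Rfx5, named here after its values were seen, had 7.06 and 7.58 FPKM in TGF-β + siHoxc8 cells, 15.3 and 11.8 FPKM in TGF-β + MetR cells, 11.3 and 11.2 FPKM in TGF-β cells and 27.9 and 28.9 FPKM in control cells. Its siHoxc8 libraries were the lowest (-0.56 ± 0.13, limma adjusted p = 0.0110). Among 9 interferon receptor and signalling genes, Socs1, a feedback inhibitor of interferon signalling, was raised (1.58 ± 0.16), Socs3 raised (0.74 ± 0.12) and Ifnar1 lowered (-0.39 ± 0.10). Calreticulin (Calr), a chaperone of the loading complex, was raised (0.96 ± 0.11) and Erap1 lowered (-0.74 ± 0.10), 2 of 9 loading genes. Of 7 activator and constitutive proteasome genes 3 were raised, Psme3 (0.61 ± 0.16), Psme2 (0.59 ± 0.11) and Psme4 (0.39 ± 0.09).

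The lists below stand against 15.7% of all genes lowered and 28.1% raised with siHoxc8 over TGF-β. Of the 6 class II processing genes, the endosomal proteases Ctsb (-0.68 ± 0.11), Ctsd (-0.67 ± 0.10) and Ctsl (-0.48 ± 0.15) were lowered, Marchf8 was raised (0.38 ± 0.09) and 2 were not called. Those 2, named after their values were seen, were the protease Lgmn (-0.0091 ± 0.10), at 68.6 and 67.8 FPKM with siHoxc8 and 64.2 and 73.4 FPKM with TGF-β, and the thiol reductase Ifi30 (0.14 ± 0.14). The MHC-like Mr1 (-1.62 ± 0.22) and Fcgrt (-0.92 ± 0.16) were lowered and Ulbp1, a ligand of the NKG2D receptor, raised (0.48 ± 0.13), of 5 tested. Cd276 was raised (0.67 ± 0.12), 1 of 3 ligands. In this contrast the epithelial keratin Krt8 was raised (1.67 ± 0.11) while Epcam was at 0, the fibroblast markers Pdgfra (2.40 ± 0.17) and Col3a1 (2.85 ± 0.59) were raised, Vim (-1.501 ± 0.13) was lowered, and the leukocyte marker Cd68 was lowered (-0.81 ± 0.27). The summed leukocyte markers were 5.98 to 6.40 FPKM with siHoxc8 and 7.46 to 7.61 FPKM with TGF-β, and the part of these shifts in the fall of class II was not tested.

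The comparisons of MetR and of siHoxc8 with TGF-β share the same TGF-β libraries, so the 2 treatments were also compared directly. Relative to MetR, all 6 class II members were lowered with siHoxc8. Of 23 class I members 10 were lowered and 4 raised (29.3% of all genes were lowered and 24.9% raised). Cd74 changed by -2.14 ± 0.16 (limma adjusted p = 5.59e-05), RT1-Db1 by -1.5001 ± 0.15, RT1-Da by -1.27 ± 0.17, RT1-Ba by -0.99 ± 0.18 and Ciita by -0.82 ± 0.15. The class I genes raised were RT1-T24-1 (1.93 ± 0.18), Psmb10 (1.16 ± 0.21), Psmb9 (1.14 ± 0.14) and Tapbp (0.79 ± 0.09). Lowered were RT1-CE3 (-1.19 ± 0.16), RT1-A1 (-0.99 ± 0.12), RT1-CE7 (-0.99 ± 0.14), RT1-CE4, RT1-CE5, RT1-CE10, B2m (-0.61 ± 0.13), RT1-A2, Tap1 (-0.54 ± 0.16) and Nlrc5. Calls held for 15 of these 20 members in every alternative in which they were tested, and median ratio rescaling ended that of Nlrc5 (limma adjusted p = 0.0567). Without siHoxc8 library 2, B2m, Nlrc5, Tap1, RT1-Bb and RT1-A2 lost theirs (limma adjusted p = 0.0553 to 0.148), and without siHoxc8 library 1, Nlrc5, Tap1 and RT1-A2 did (0.0511 to 0.114). Nlrc5 also lost it without MetR library 1 (0.113) or either control library (0.0637 to 0.0642), and Tap2 gained one without siHoxc8 library 2 (0.0082).

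Set against control, cells with TGF-β + siHoxc8 had 16 of 23 class I and 6 of 6 class II members lowered (27% of all genes were lowered and 21.7% raised). The class II median was -2.21 and the class I median -0.88, against -0.049 over all genes. On the log2(FPKM + 1) scale Cd74 changed by -3.66 ± 0.16 (limma adjusted p = 1.01e-05), RT1-Ba by -2.48 ± 0.18, RT1-Da by -2.27 ± 0.17, RT1-Db1 by -2.15 ± 0.15 and RT1-Bb by -1.38. In FPKM alone RT1-Bb (mean 0.0245 against 1.66 FPKM in control) and RT1-Da (0.141 against 4.54) fell further than Cd74 (1.82 against 34.7). Both chains rested on few reads with siHoxc8. Psmb10 (0.019 ± 0.21), RT1-T24-1 (-0.019 ± 0.18), Psmb8 (-0.30 ± 0.25), Tap1 (-0.081 ± 0.16), Tap2 (0.499 ± 0.32), Nlrc5 (-0.25 ± 0.15) and RT1-T24-3 (-0.29 ± 0.19) were not called. Of the 22 calls, 6 were lost without 1 library or another. Without control library 1, Ciita, RT1-M6-2, RT1-N3, RT1-S3, RT1-T24-4 and Tapbp missed the threshold (limma adjusted p = 0.0711 to 0.224), without control library 2 Ciita, RT1-M6-2 and Tapbp (0.0509 to 0.160), without siHoxc8 library 1 Ciita, RT1-M6-2, RT1-T24-4 and Tapbp (0.0792 to 0.148), and without siHoxc8 library 2 Ciita, RT1-N3, RT1-S3, RT1-T24-4 and Tapbp (0.0717 to 0.162). RT1-T24-4 lost it without either TGF-β library (0.0698 to 0.0699), quantile normalization ended the calls of Ciita, RT1-M6-2 and RT1-T24-4 (0.0504 to 0.146), and Tap2 gained one without siHoxc8 library 1 (0.0168).

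Cells with TGF-β + MetR, set against control, had 10 of 23 class I members lowered and 2 raised, and 5 of 6 class II members lowered (29.3% of all genes were lowered and 28% raised). Tap2 (1.15 ± 0.32) and Tap1 (0.45 ± 0.16) were the members raised. Psmb9 was the most lowered on the log2(FPKM + 1) scale (-2.15 ± 0.14, limma adjusted p = 3.16e-05), followed by RT1-T24-1 (-1.95 ± 0.18), RT1-N2 (-1.69 ± 0.17), RT1-M3-1 (-1.61 ± 0.11), Cd74 (-1.52 ± 0.16), RT1-Ba (-1.49 ± 0.18), Psmb10 (-1.14 ± 0.21) and Tapbp (-1.12 ± 0.09). In FPKM alone RT1-T24-1 fell further than Psmb9, 8.13-fold against 5.13-fold. B2m (-0.23 ± 0.13), RT1-A1 (-0.020 ± 0.12), RT1-CE4 (0.040 ± 0.16), Psmb8 (-0.038 ± 0.25) and Nlrc5 (0.19 ± 0.15) were not called. Under quantile normalization Nlrc5, Ciita and RT1-CE3 gained a call as raised, and RT1-CE7 as lowered (limma adjusted p = 0.0108 to 0.0364). Of the 17 calls, 6 were lost without 1 library or another. Without control library 1, RT1-S3, RT1-T24-3, Tap1, Tap2 and RT1-Bb missed the threshold (limma adjusted p = 0.0565 to 0.138), without control library 2 Tap1, Tap2, RT1-Bb and RT1-Db1 (0.0531 to 0.153), without MetR library 2 RT1-S3, Tap1 and Tap2 (0.0604 to 0.0979) and without MetR library 1 RT1-S3 (0.0619). Tap1 lost its call also without either TGF-β or either siHoxc8 library (0.0678 to 0.0718), and quantile normalization ended those of RT1-S3 and RT1-Bb (0.0782 to 0.0893). RT1-CE10 gained a call without either TGF-β library (0.0467 to 0.0477), Ciita and RT1-CE3 without MetR library 1 (0.0242 to 0.0435), and RT1-T24-4 and RT1-CE7 without MetR library 2 (0.0025 to 0.0239).

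Ratios within a library show how the parts of the pathway shifted against each other, as a description with no test. As a percent of its constitutive counterpart Psmb5, Psmb8 came to 17.4% and 12.5% in TGF-β + siHoxc8 libraries, 17.5% and 20.5% in TGF-β + MetR libraries, 7.48% and 8.24% in TGF-β libraries and 24.9% and 18.7% in control libraries. The TGF-β libraries were the lowest, MetR overlapped with control, and siHoxc8 lay below control. As a percent of Psmb6, Psmb9 came to 8.95% and 8.19% in TGF-β + siHoxc8 libraries, 5.63% and 3.55% in TGF-β + MetR libraries, 12.2% and 10.8% in TGF-β libraries and 27.9% and 27.0% in control libraries. Control was highest, and MetR lowest, with no overlap between the 4 groups. As a percent of Psmb7, Psmb10 came to 71.9% and 70.0% in TGF-β + siHoxc8 libraries, 60.5% and 49.9% in TGF-β + MetR libraries, 21.8% and 33.8% in TGF-β libraries and 109% and 102% in control libraries. Here siHoxc8 and MetR were above TGF-β and control was above all.

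For the neighbours Tap1 and Psmb9, the ratio of FPKM was 1.02 and 1.23 in TGF-β + siHoxc8 libraries, 3.28 and 4.98 in TGF-β + MetR libraries, 1.27 and 1.03 in TGF-β libraries and 0.590 and 0.543 in control libraries. It was highest with MetR and lowest in control, while siHoxc8 and TGF-β overlapped. B2m over the summed heavy chains came to 2.58 and 2.47 in TGF-β + siHoxc8 libraries, 2.51 and 2.27 in TGF-β + MetR libraries, 1.72 and 1.97 in TGF-β libraries and 1.96 and 1.94 in control libraries. This RNA ratio was thus higher in the siHoxc8 and MetR libraries than in those with TGF-β and control, which overlapped. It covers only the heavy chain genes listed, and the chains themselves were not measured.

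**Figure D4:**
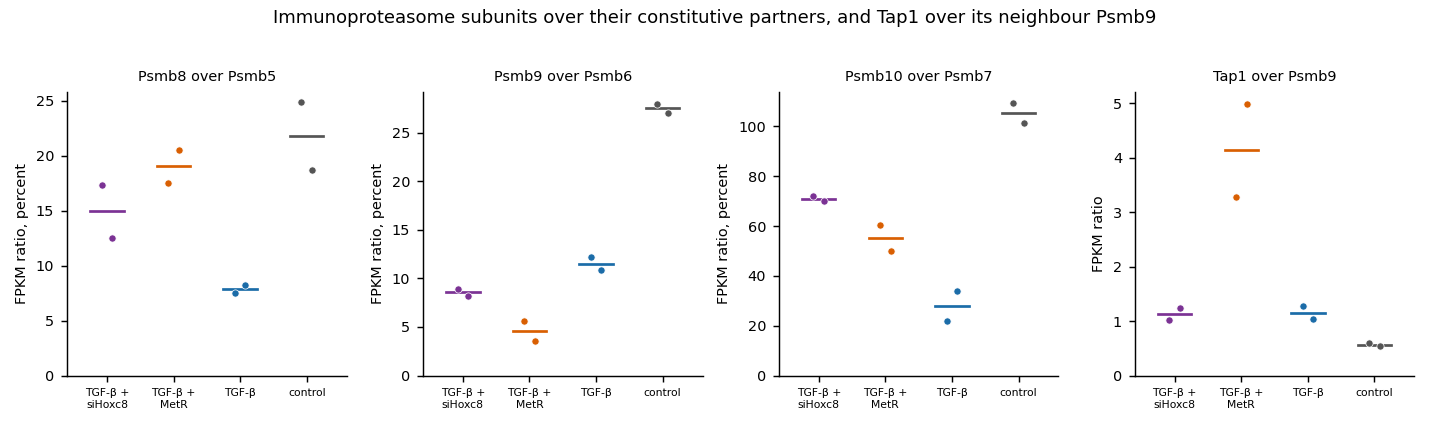
FPKM ratios by library: Psmb8 over Psmb5, Psmb9 over Psmb6 and Psmb10 over Psmb7 as percent, and Tap1 over Psmb9 as a plain ratio. Points are libraries, lines group means of 2, and axes start at 0. Psmb9 is lowest with MetR, Psmb8 and Psmb10 with TGF-β, and the Tap1 to Psmb9 ratio is highest with MetR.

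The remaining 12 members did not reach the level for testing. RT1-Ha was listed at 0 in every library. RT1-M2, RT1-M4, RT1-M5, RT1-M6-1, RT1-S2, RT1-CE1, RT1-DOa, RT1-DOb and RT1-Db2 stayed below 1 FPKM in all 8 libraries, the highest of them being RT1-M6-1 at 0.764 FPKM in control library 1. RT1-DMa and RT1-DMb encode the chains of DM, the molecule that exchanges the invariant chain peptide for antigen. RT1-DMa had 104 reads (3.70 FPKM) in TGF-β library 1 and at most 3 reads in any other library. RT1-DMb had 138 reads (4.42 FPKM) in control library 1, 22 reads (0.626 FPKM) in MetR library 1 and at most 2 in the others. Each was thus high in 1 library of a group and near 0 in its replicate, and no change is given for them. RT1-DOa and RT1-DOb, whose products regulate DM, held at most 2 reads in any library.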

How the data were processed

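RNA from 8 NRK-49F libraries in 4 groups of 2 was analysed, with groups and replicate numbers taken from the sample titles. The authors deposited 1 table of FPKM values with gene symbols, per the labels. The submitters' processing notes name genome build rn6 and, with no role or order, featureCounts, deepTools, Bowtie2 2.3.5.1 and Trim Galore. For annotation, strand setting and reads with several matches, nothing is stated in the sources used here. Whole reads were recovered from the FPKM steps for 100.0% of 19435 genes above 0 (tolerance 0.02 reads), 15118113 to 20146870 per library.

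Expression was compared with limma 3.58.1 (R 4.3.3) on log2(FPKM + 1), with 1 coefficient per group over all 8 libraries and a variance trend (4 residual and 3.47 prior degrees of freedom), for the 12315 genes that reached 1 FPKM in 2 libraries or more. P-values are two-sided and Benjamini-Hochberg adjusted over all genes of each of 6 comparisons, with a threshold of 0.05. The method was tested on simulated data. A list is described by its counts and median, and no set test was run. Every tested member is named, and of other lists up to 4 genes by size of change among those past the threshold, except 1 result that is not reported here. Members, lists and tests were chosen with earlier results of these data known. Upstream sequences are from RefSeq (GRCr8), used by symbol. The 16 alternatives covered a pseudocount of 0.1, no filter, a mean of at least 5 FPKM, median ratio and quantile scaling, limma-voom on recovered reads, library weights, a replicate block and leaving out each library.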

Additional observations from a re-analysis of the deposited data

How the results depend on the processing

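Of the calls on members, 12 of 21 for TGF-β over control, 6 of 16 for MetR over TGF-β, 10 of 14 for siHoxc8 over TGF-β, 11 of 17 for MetR over control, 16 of 22 for siHoxc8 over control and 15 of 20 for siHoxc8 over MetR held in every alternative in which the member was tested. With members required to reach a mean of 5 FPKM, fewer were tested and the number lowered was 13 for TGF-β over control, 3 for MetR over TGF-β, 6 for siHoxc8 over TGF-β, 8 for MetR over control, 14 for siHoxc8 over control and 10 for siHoxc8 over MetR. Members raised for MetR over TGF-β numbered 7 under quantile normalization and 6 with library weights, which left 2 lowered. Those raised for MetR over control numbered 1 without a filter, 1 at a mean of 5 FPKM, 1 with library weights and 5 under quantile normalization. For TGF-β over control, all genes split into 2350 raised and 2092 lowered under median ratio rescaling and 2079 and 2102 under quantile normalization, against 1269 and 3523 without rescaling. The cause of these shifts was not tested.

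Without 1 library at a time, the members lowered numbered 12 to 23 for TGF-β over control, 3 to 5 for MetR over TGF-β, 8 to 11 for siHoxc8 over TGF-β, 12 to 16 for MetR over control, 16 to 22 for siHoxc8 over control and 12 to 16 for siHoxc8 over MetR. The members raised numbered 0 for TGF-β over control, 6 to 14 for MetR over TGF-β, 3 to 4 for siHoxc8 over TGF-β, 0 to 4 for MetR over control, 0 to 1 for siHoxc8 over control and 4 for siHoxc8 over MetR. Over all genes the number lowered was 1700 to 4530 for TGF-β over control, 1799 to 2547 for MetR over TGF-β, 1148 to 2431 for siHoxc8 over TGF-β, 2720 to 3723 for MetR over control, 2156 to 3891 for siHoxc8 over control and 2440 to 4062 for siHoxc8 over MetR. The number raised was 620 to 1768 for TGF-β over control, 3453 to 4780 for MetR over TGF-β, 2004 to 4304 for siHoxc8 over TGF-β, 2428 to 3933 for MetR over control, 1676 to 3309 for siHoxc8 over control and 2181 to 3305 for siHoxc8 over MetR. Where this left 1 library in a group, it was assumed to vary like the other groups.

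Changes of sign were seen only for members not called in the unaltered fit. Median ratio rescaling gave log2 fold changes of Tap1 0.046 for TGF-β over control, RT1-M6-2 -0.11, RT1-S3 -0.0019, RT1-T24-4 -0.15, RT1-CE5 -0.10 and RT1-A2 -0.14 for MetR over TGF-β, and B2m -0.16, Psmb9 -0.044 and Tap1 -0.068 for siHoxc8 over TGF-β and RT1-T24-1 0.034 for siHoxc8 over control. Quantile normalization gave Tap1 0.066 and Tap2 0.022 for TGF-β over control, RT1-M6-2 -0.058, RT1-T24-4 -0.18, RT1-CE5 -0.13 and RT1-A2 -0.15 for MetR over TGF-β, B2m -0.033, Psmb9 -0.037 and Tap1 -0.059 for siHoxc8 over TGF-β, B2m 0.075 for MetR over control, Psmb10 -0.043, RT1-T24-1 0.15 and Tap1 0.0064 for siHoxc8 over control. A pseudocount of 0.1 gave RT1-N3 0.0002 for siHoxc8 over TGF-β. Leaving out libraries gave the following ranges of log2 fold change. For TGF-β over control, Ciita -0.047 to 0.15. For MetR over TGF-β, RT1-M6-2 -0.20 to 0.28, RT1-T24-4 -0.42 to 0.51, RT1-Ba -0.26 to 0.12, RT1-Db1 -0.24 to 0.12, RT1-CE5 -0.025 to 0.21 and RT1-A2 -0.15 to 0.28. For siHoxc8 over TGF-β, B2m -0.14 to 0.15, RT1-N3 -0.18 to 0.18, RT1-S3 -0.38 to 0.22 and Psmb9 -0.050 to 0.28. For MetR over control, Psmb8 -0.29 to 0.22, RT1-CE4 -0.17 to 0.25 and RT1-A1 -0.16 to 0.12. For siHoxc8 over control, Psmb10 -0.038 to 0.076, RT1-T24-1 -0.22 to 0.18 and Tap2 -0.030 to 1.03. For siHoxc8 over MetR, RT1-S3 -0.49 to 0.11 and RT1-T24-4 -0.85 to 0.079.

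Replicate numbers were the only pairing the labels offered. Deviations of same-numbered libraries from their group means correlated between -0.0196 and 0.2023 over the 6 pairs of groups. The highest value was for TGF-β with MetR. With 2 libraries per group, this cannot show whether same-numbered libraries shared a culture or handling. With the number as a replicate block, the members lowered for TGF-β over control numbered 20. Those raised and lowered for MetR over TGF-β numbered 11 and 5, and those for siHoxc8 over TGF-β 3 and 10. There Psmb10 gained a call for MetR over TGF-β (0.0428, limma adjusted p), RT1-Bb lost its call (0.0661), and Psmb8 lost its call for siHoxc8 over TGF-β (0.0561). Reads limit the low members, among them RT1-Bb, RT1-T24-3 and RT1-CE3, which rest on few reads in several libraries.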
